A study of Mus musculus with 8 samples.

Results

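Primordial germ cells (PGCs) are set aside from the epiblast by a small group of regulators and then carry a recognisable set of transcripts. The 10 genes described here act in or mark this step: *Prdm1*, *Prdm14*, *Tfap2c*, *T*, *Ifitm1*, *Ifitm3*, *Kit*, *Nanos3*, *Dnd1* and *Dppa3*. They were taken as a list of symbols. A probe belonged to a gene when its RefSeq accession mapped to that symbol. Each of the 10 genes had 1 probe, out of 19751 genes named on the array, and all 10 were well above background on all 8 arrays.

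In the embryo, BMP signals, with WNT signals and the mesoderm regulator T, act on epiblast cells to switch on PRDM1 (BLIMP1), PRDM14 and TFAP2C, which together repress the somatic programme and restore pluripotency genes. Founding PGCs bear IFITM proteins and KIT on their surface, and NANOS3 and DND1 bind RNA and keep the cells alive while they migrate. Embryonic stem cells (ESCs) already express several of these genes, because they share much of the pluripotency network with PGCs. The later genes of gametogenesis, such as *Ddx4* and *Dazl*, are held silent in ESCs in part by PCGF6-PRC1, a Polycomb complex to which L3MBTL2 belongs.

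VV3 ESCs are a male mouse line that carries a *Vasa*::Venus reporter and is grown on STO feeder cells in serum with LIF. They were transfected with siRNA against *L3mbtl2* (*L3mbtl2*-KD ESCs, 4 samples) or with AllStars, an siRNA that silences no gene (control ESCs, 4 samples), and RNA of each sample was put on its own one-colour Agilent array. The *L3mbtl2*-KD samples are the Vasa-positive cells that FACS isolated after transfection, whereas the methods name no such selection for the control ESCs they were set against, so the siRNA and the selection of Vasa-positive cells cannot be told apart. A single siRNA was used, and both groups carry the reporter. Values are log2 intensities minus the 75th percentile of the array, so that a value of 0 lies at that percentile. Between 59.5 and 66.6% of the spots on an array were well above background, and the number of arrays limits the precision.

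*L3mbtl2* was at 0.27, -0.18, -0.21 and -0.31 in control ESCs and at -1.45, -1.26, -1.58 and -1.73 in *L3mbtl2*-KD ESCs, in the order of replicates 1 to 4. The target was lower in every *L3mbtl2*-KD sample than in every control sample, by a log2 fold change of -1.40 with a standard error of 0.15 and an adjusted p of 0.000944 from limma. The ESC markers *Pou5f1*, *Sox2*, *Zfp42*, *Esrrb*, *Tdgf1*, *Klf4*, *Fgf4* and *Nanog* were above background on all arrays of both groups.

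Of the 10 early PGC genes, *Dppa3* rose in *L3mbtl2*-KD ESCs and the others did not pass the threshold of a change over 2-fold at an adjusted p under 0.05. The 1 of 10 genes called higher stands beside 2.49% of the 13652 genes tested (340 genes), and the count of 0 called lower stands beside 3.21% (438 genes). With the adjusted p alone, the counts were again 1 and 0, where 10.3% and 11.7% of all genes passed. At an unadjusted p under 0.05 with the 2-fold threshold, limma gave 1 gene higher and 1 lower (*Prdm1*), where 2.65% and 3.57% of all genes passed. The median log2 fold change of the 10 genes was 0.01, beside -0.01 over all genes tested. The groups did not overlap for *Dppa3*, higher, and *Prdm1*, lower, which is 1 of 10 genes in each direction, where 12.7% of all genes lay apart in the higher and 13.8% in the lower direction. For samples lying apart, the share among the 10 genes is thus close to that among all genes.

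**Figure D1:**
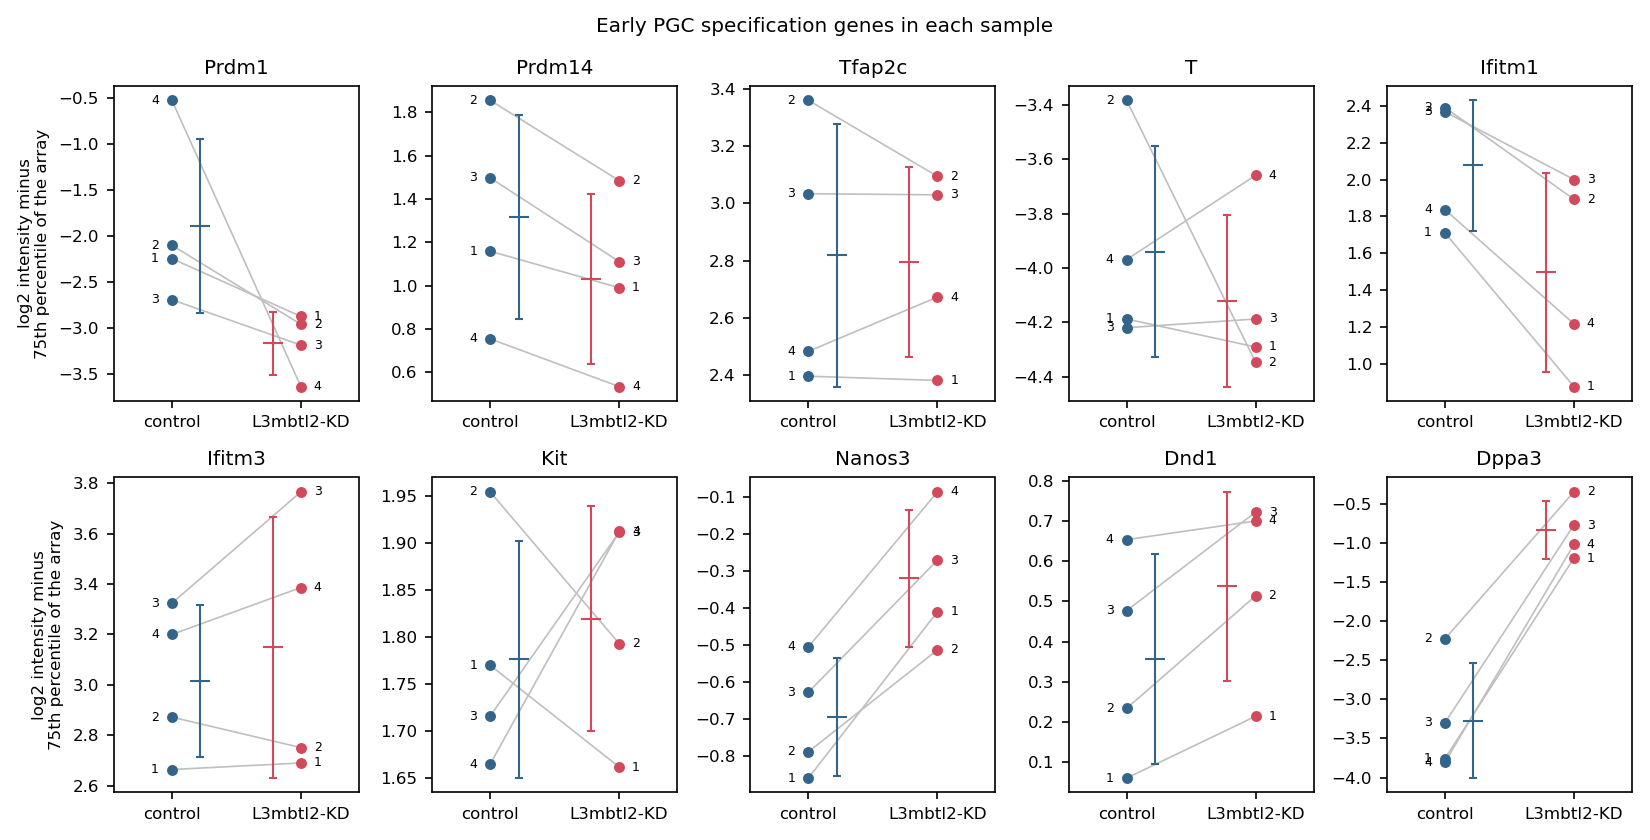
Level of each gene in each sample, as log2 intensity minus the 75th percentile of the array (the vertical scale differs between panels). Points are samples with their replicate numbers, grey lines join samples of one number, and the bars give the mean and SD of 4 samples. *Dppa3* lies higher in all 4 *L3mbtl2*-KD samples and *Prdm1* lower.

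The transcription factor *Prdm1* (NM_007548), whose product represses the somatic programme in PGC precursors, was at -2.24, -2.10, -2.69 and -0.52 in control ESCs and at -2.87, -2.96, -3.18 and -3.63 in *L3mbtl2*-KD ESCs. Every *L3mbtl2*-KD sample was below every control sample, control replicate 4 was far above the other controls, and *L3mbtl2*-KD replicate 4 was the lowest of all. The log2 fold change was -1.27 (standard error 0.43, 95% interval -2.24 to -0.30), with an adjusted p of 0.0716 from limma and an exact two-sided permutation p of 0.0286, the smallest that 4 against 4 samples can give. Over one probe per gene, 267 of 13652 genes had a larger fall. The size rests on 1 sample. Without control replicate 4 the log2 fold change was -0.82, with an adjusted p of 0.0490, and over all alternatives the adjusted p was between 0.0490 and 0.181. It was -0.74 within slide 1 and -1.80 within slide 2, which held replicates 3 and 4, and -0.83 with normexp background correction.

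*Prdm1* is also expressed in visceral endoderm and in other somatic cells, so markers of other cell types were read in the same samples. Of 8 primitive endoderm markers, 5 were called lower and none higher, and their median log2 fold change was -1.77, or -1.40 with *Foxa2* at its bound. The 5 were *Cubn* (-3.21, adjusted p = 0.000541), *Dab2* (-2.53, adjusted p = 0.00206), *Sox17* (-2.07, adjusted p = 0.00590), *Pdgfra* (-1.50, adjusted p = 0.00645) and *Foxa2*. *Foxa2* was at background in all *L3mbtl2*-KD samples and was at least 2.45-fold lower (adjusted p = 0.00235). Of the 4 *L3mbtl2*-KD arrays, *Dab2* was above background on 1 and *Sox17* on 3, so the sizes of their changes are less sure. For the bound of *Foxa2* and those below, an array on which a gene was at background was given the dimmest signal still called well above background there, unless the gene's own signal exceeded it. Treated in this way *Dab2* was at -2.45 and *Sox17* at -1.94, and the list median was again -1.40. With normexp background correction the log2 fold changes of *Dab2*, *Pdgfra* and *Foxa2* were -0.95, -0.80 and -0.41, under 2-fold.

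The summed level of the 8 primitive endoderm markers, in multiples of the 75th percentile of intensity, was 3.63, 3.22, 2.66 and 4.09 in control replicates 1 to 4. In *L3mbtl2*-KD replicates 1 to 4 it was 1.30, 2.10, 1.56 and 1.28. Control replicate 4 and *L3mbtl2*-KD replicate 4 were thus the highest and the lowest for this sum, as they were for *Prdm1*. *L3mbtl2*-KD replicate 4 was only just below replicate 1. The order is not particular to this list, as the mean log2 level of the feeder markers was also highest in control replicate 4 (-1.14) and lowest in *L3mbtl2*-KD replicate 4 (-2.99). The brightest probe of the list, that of *Gata6*, had a log2 fold change of 0.06 (adjusted p = 0.883), and the list's part in the result for *Prdm1* was not tested.

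Feeder fibroblast markers also differed between the groups. Of 16 markers, 12 were tested, 5 were called lower and 1 higher, with a median of -0.72. *Dcn* was at least 12.1-fold lower (adjusted p = 0.000369) and *Col3a1* at least 7.82-fold lower (adjusted p = 0.00120), both at background in all *L3mbtl2*-KD samples. With normexp their log2 fold changes were -1.88 and -1.54, smaller than these bounds. Log2 fold changes were -2.81 for *Col1a2* (adjusted p = 0.00438), -2.72 for *Acta2* (adjusted p = 0.00302) and -2.22 for *Col1a1* (adjusted p = 0.00619), while *Loxl1* was at 1.01 (adjusted p = 0.000967) and at 0.89, under 2-fold, with normexp, and leaving out 1 sample gave 0.93 to 1.08. *Lum*, *Postn*, *Fap* and *Prrx1*, which also mark fibroblasts, were at background in both groups. The summed level of the 12 tested feeder markers was 6.10, 13.5, 12.1 and 15.1 in control replicates 1 to 4. In *L3mbtl2*-KD replicates 1 to 4 it was 5.76, 5.83, 6.53 and 6.60. The brightest probe was that of *Tagln* (-0.58, adjusted p = 0.173). This probe gave a large part of the sum, and the mean log2 level of the list, -2.13, -1.21, -1.53 and -1.14 in control and -2.98, -2.83, -2.88 and -2.99 in *L3mbtl2*-KD replicates 1 to 4, did not overlap between the groups. STO feeder cells carry no *Vasa*::Venus reporter, so a gate for Vasa-positive cells would leave them out of the *L3mbtl2*-KD samples. The part of feeder cells and of the gate in any result was not tested. In bulk RNA, fewer cells of a type and less RNA per cell cannot be told apart.

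**Figure D2:**
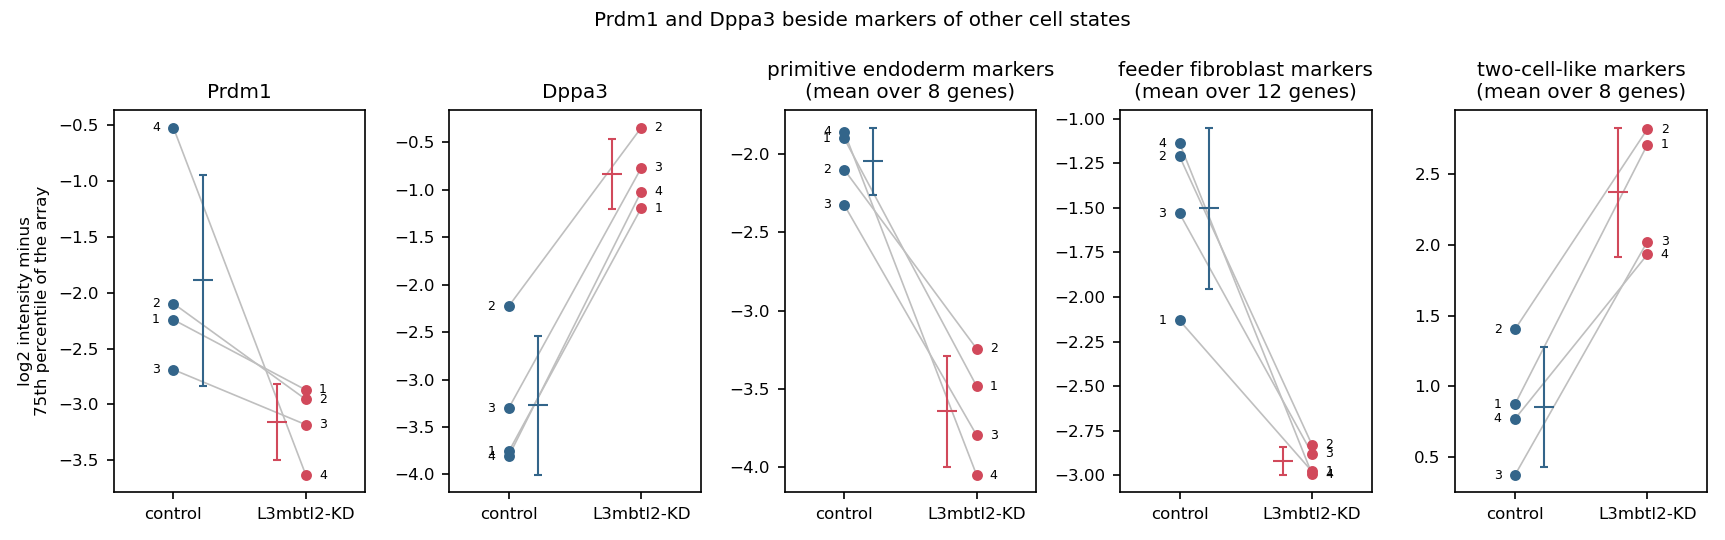
*Prdm1*, *Dppa3* and the mean log2 level of 3 marker lists in each sample, with replicate numbers, grey lines between samples of one number, and mean and SD of 4 samples. The primitive endoderm and feeder fibroblast means are lower in every *L3mbtl2*-KD sample than in every control sample, and the 2-cell-like mean is higher.

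*Prdm14* (NM_001081209), a regulator that PGCs and naive ESCs have in common, was at 1.16, 1.86, 1.5 and 0.75 in control ESCs and at 0.99, 1.48, 1.11 and 0.53 in *L3mbtl2*-KD ESCs. The groups overlapped widely, but each *L3mbtl2*-KD sample was below the control of the same number, by a log2 difference of -0.17, -0.37, -0.39 and -0.22. The log2 fold change of -0.29 (standard error 0.27) had an adjusted p of 0.495 from limma without the block. With the replicate block, which compares samples of the same number as paired, the standard error was 0.06 and the adjusted p was 0.0167, where its alternatives ranged from 0.0167 to 0.821.

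*Tfap2c* (NM_009335), which acts downstream of PRDM1 in PGC precursors and is present in ESCs, was at 2.40, 3.36, 3.03 and 2.48 in control ESCs and at 2.38, 3.09, 3.03 and 2.67 in *L3mbtl2*-KD ESCs. The samples fell by replicate number and not by group, with numbers 2 and 3 above numbers 1 and 4 in both. Between the groups the log2 fold change was -0.02 (95% interval -0.59 to 0.54, adjusted p = 0.960 from limma), and it was -0.14 within slide 1 and 0.093 within slide 2.

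*T* (NM_009309), the mesoderm factor upstream of *Prdm1* and *Prdm14*, was near the lower end of the measured range. It was at -4.19, -3.38, -4.22 and -3.97 in control ESCs and at -4.29, -4.35, -4.19 and -3.66 in *L3mbtl2*-KD ESCs, where the lowest signal well above background was between -5.98 and -5.25 per array. The groups overlapped, and the highest value belonged to control replicate 2. A log2 fold change of -0.18 was found (95% interval -0.68 to 0.32, adjusted p = 0.611 from limma), and it was -0.53 within slide 1 and 0.17 within slide 2.

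Relatives of these factors were read from the same fit. Of 15 PRDM genes, *Prdm1* and *Prdm14* included, 13 had a probe and 8 were tested. No PRDM gene was called by limma, and only *Prdm1* passed over 2-fold at an unadjusted p, while 1 gene of the family was lower with the adjusted p alone. This was *Prdm15*, named after its values were seen (adjusted p = 0.0150 from limma), which was at background in all *L3mbtl2*-KD samples. It is shown only to be at least 1.17-fold lower, and its log2 fold change was 0.02 with normexp. The family's median was -0.03, or -0.01 with bounds. In the AP-2 family, which holds *Tfap2c*, 3 of 5 genes were tested and limma called none over 2-fold, with an adjusted or an unadjusted p, and 1 was higher with the adjusted p alone, with a median of 0.06. Of 17 T-box genes with *T*, 13 were tested and *Tbx20* alone passed the threshold in the fit (adjusted p = 0.00498). It was at background in all *L3mbtl2*-KD samples, so that it is shown only to be at least 1.33-fold lower, which is under 2-fold, and its log2 fold change was -0.25 with normexp. At that bound no T-box gene was over 2-fold, and the family's median was -0.22. Genes that accompany *T* in nascent mesoderm included 9 tested genes of 12, of which *Fgf8* was called higher, with a median of -0.14.

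Genes that PRDM1 or PRDM14 hold down, as known from other work, did not move together. Of 13 genes, 12 were tested, 1 was called higher and none lower, and the median was -0.06. *Fgf8*, a growth factor of the primitive streak, was at -3.13, -3.06, -3.42 and -3.01 in control ESCs and at -1.52, -2.03, -2.15 and -1.92 in *L3mbtl2*-KD ESCs. Its groups did not overlap, and the log2 fold change was 1.25 (adjusted p = 0.00149 from limma) and 0.91 with normexp background correction. *Dnmt3l*, a cofactor of the de novo DNA methyltransferases and named after its values were seen, was at 0.99 (adjusted p = 0.00244), just under 2-fold.

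Partners and pluripotency genes shared by ESCs and PGCs gave 14 genes with a probe, all tested, and limma called none of them. Over 2-fold at an unadjusted p, 1 gene was lower and none higher, with the adjusted p alone 1 was lower, and the median was -0.14. *Utf1*, with the brightest probe, was at 0.12 (adjusted p = 0.617). *Nanog*, named after its values were seen, was the gene that passed over 2-fold at an unadjusted p. It was at -2.89, -1.39, -2.87 and -2.73 in control ESCs and at -4.57, -3.93, -4.13 and -2.51 in *L3mbtl2*-KD ESCs, where replicate 4 overlapped with the controls, and its log2 fold change was -1.31 (adjusted p = 0.0962). It was -2.11 within slide 1, -0.52 within slide 2 and -0.69 with normexp. Leaving out 1 sample gave -1.74 to -0.95, with adjusted p-values of 0.0271 to 0.196. The 8 ESC markers gave no call over 2-fold either, with 1 lower over 2-fold at an unadjusted p, *Nanog* again, and a median of -0.25. *Tdgf1*, with the brightest probe, was at -0.28 (adjusted p = 0.0580). With the adjusted p alone 1 was lower, *Klf4*, a pluripotency factor named after its values were seen (-0.70, adjusted p = 0.0274).

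The signals that induce PGCs were read as a list of 19 BMP and WNT genes, of which 14 were tested. None was called by limma, also at an unadjusted p with the 2-fold threshold. With the adjusted p alone 2 were higher and 3 lower, and the median was -0.21. *Ctnnb1*, which encodes the WNT effector beta-catenin and had the brightest probe, was at 0.32 (adjusted p = 0.0462). The 4 others, named after their values were seen, were *Bmp8b* (0.64, adjusted p = 0.0222), *Id4* (-0.86, adjusted p = 0.00616), the BMP receptor gene *Acvr1* (-0.63, adjusted p = 0.00227) and *Smad5* (-0.25, adjusted p = 0.0439). *Id4* was at background on 2 *L3mbtl2*-KD arrays, and with normexp its log2 fold change was -0.15.

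**Figure D3:**
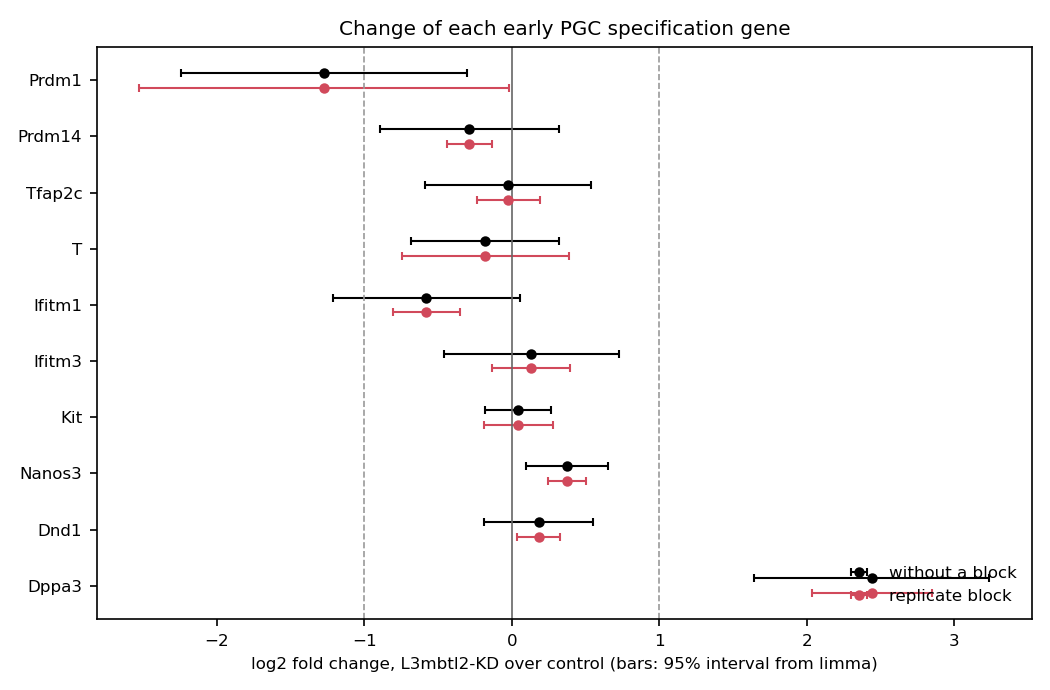
Log2 fold change of each gene, *L3mbtl2*-KD over control, with its 95% interval from limma, without a block (black) and with the replicate block (red). Dashed lines mark 2-fold. The estimates of *Dppa3* and *Prdm1* lie beyond 2-fold, and the intervals are narrower with the block except those of *Prdm1*, *Kit* and *T*.

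Among the surface proteins, *Ifitm1* (NM_001112715), an interferon-inducible membrane protein of early PGCs, was at 1.71, 2.39, 2.37 and 1.84 in control ESCs and at 0.88, 1.89, 2.00 and 1.22 in *L3mbtl2*-KD ESCs. The groups overlapped, and each *L3mbtl2*-KD sample was below its control of the same number, by a log2 difference of -0.83, -0.50, -0.37 and -0.62. Its log2 fold change of -0.58 had a standard error of 0.28 and an adjusted p of 0.183 from limma. With the replicate block the adjusted p was 0.00758 (standard error 0.09), the lowest of its alternatives, which reached 0.556.

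*Ifitm3* (NM_025378), the neighbouring paralogue that marks the founding PGC population, was at 2.66, 2.87, 3.32 and 3.20 in control ESCs and at 2.69, 2.75, 3.77 and 3.39 in *L3mbtl2*-KD ESCs. Replicates 3 and 4, the pair on slide 2, were higher than replicates 1 and 2 in both groups. Between the groups the difference was 0.13 (log2, 95% interval -0.46 to 0.73, adjusted p = 0.765 from limma), and it was -0.048 within slide 1 and 0.31 within slide 2. The IFITM family, with *Ifitm1* and *Ifitm3*, had 7 genes in the list, 6 with a probe and 4 tested. None was called by limma, also over 2-fold at an unadjusted p, and the median was -0.04. *Ifitm2* had the brightest probe, at a log2 fold change of -0.16 (adjusted p = 0.531).

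The IFITM genes respond to interferon, and 14 other genes of that response were read beside them. Of the 7 tested, 1 was called higher and none lower, with a median of 0.17. *Isg15*, a ubiquitin-like protein of this response, was at -0.08, -0.69, -0.85 and -0.69 in control ESCs and at 0.71, -0.19, 1.42 and 0.35 in *L3mbtl2*-KD ESCs, with 1 *L3mbtl2*-KD sample within the range of the controls (log2 fold change 1.15, adjusted p = 0.0409). It was 0.64 within slide 1 and 1.66 within slide 2, and leaving out 1 sample gave 0.87 to 1.41, with adjusted p-values of 0.0168 to 0.106, so that the call rests on single samples. The highest value of *Isg15* and of *Ifitm3* both belonged to *L3mbtl2*-KD replicate 3. The summed level of the 7 genes was 18.4, 19.5, 19.1 and 17.6 in control replicates 1 to 4. It was 20.6, 19.1, 31.9 and 20.4 in *L3mbtl2*-KD replicates 1 to 4, *Bst2* had the brightest probe, and the part of this response in the IFITM values was not tested.

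*Kit* (NM_001122733), the receptor through which KIT ligand supports migrating PGCs, was at 1.77, 1.95, 1.72 and 1.66 in control ESCs and at 1.66, 1.79, 1.91 and 1.91 in *L3mbtl2*-KD ESCs. The groups covered the same range, and *Kit* had the smallest SD of the 10 genes in both groups, 0.13 and 0.12 (n = 4). The group means differed by a log2 fold change of 0.04 (95% interval -0.18 to 0.27, adjusted p = 0.798 from limma), and it was -0.13 within slide 1 and 0.22 within slide 2. *Kitl*, which encodes the ligand, was not tested, since it was at background in both groups. Of the KIT receptor family and ligand, *Kit* included, 4 of 6 genes were tested, and *Pdgfra* and *Pdgfrb* were called lower, the second at -1.57 (adjusted p = 0.00132), with a median of -0.73. With normexp they were at -0.80 and -0.84, under 2-fold. Both are receptors of mesenchyme, and *Pdgfra* was also among the primitive endoderm markers.

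Genes of PGC migration and survival comprised 9 genes, of which 7 were tested and 1 was called lower, with a median of -0.32. With the adjusted p alone 3 were lower and none higher, the others being the adhesion genes *Cdh1* (-0.49, adjusted p = 0.00539) and *Epcam* (-0.34, adjusted p = 0.0231), named after their values were seen. *Cxcl12*, the chemokine that guides migrating PGCs, was at -0.13, -0.56, -0.42 and 0.38 in control ESCs and at -1.73, -1.86, -1.44 and -1.22 in *L3mbtl2*-KD ESCs (log2 fold change -1.38, adjusted p = 0.00503). Its groups did not overlap. Stromal cells express *Cxcl12*, and 5 of the feeder markers and *Pdgfrb* were also called lower, whose part in this result was not tested. The gene of its receptor, *Cxcr4*, was not tested.

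*Nanos3* (NM_194059), an RNA-binding protein that protects PGCs from cell death, was at -0.86, -0.79, -0.63 and -0.50 in control ESCs and at -0.41, -0.51, -0.27 and -0.09 in *L3mbtl2*-KD ESCs. The groups overlapped only in that *L3mbtl2*-KD replicate 2 was just below control replicate 4, and each *L3mbtl2*-KD sample was above its control of the same number, by 0.45, 0.28, 0.36 and 0.42. *Nanos3* had a log2 fold change of 0.37 (1.30-fold) with a standard error of 0.12, an adjusted p of 0.0654 from limma and an exact two-sided permutation p of 0.0571. With the replicate block the adjusted p was 0.00543, with the slide as a block it was 0.0114, and over its alternatives it ranged from 0.00543 to 0.333. Of the 3 NANOS genes, *Nanos3* included, 2 were tested, and limma called none, also over 2-fold at an unadjusted p, with a median of 0.25.

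*Dnd1* (NM_173383), the RNA-binding partner of NANOS proteins, was at 0.06, 0.23, 0.48 and 0.65 in control ESCs and at 0.21, 0.51, 0.72 and 0.70 in *L3mbtl2*-KD ESCs. The samples were ordered mostly by replicate number, and each *L3mbtl2*-KD sample was above its control by 0.15, 0.28, 0.24 and 0.05. *Dnd1* had a log2 fold change of 0.18 (95% interval -0.19 to 0.55, adjusted p = 0.479 from limma).

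Read by pairs of one replicate number, 3 of 10 genes were higher in every pair (*Dppa3*, *Nanos3* and *Dnd1*) and 3 were lower in every pair (*Prdm1*, *Prdm14* and *Ifitm1*), where 31.1% of all genes were higher and 32.7% lower in every pair. The share among the 10 genes is thus close to that among all genes. In the fit with the replicate block, with the adjusted p alone, 2 genes passed as higher and 2 as lower, where 23.9% and 26.0% of all genes did so. This count was added after the data had been seen, and only *Dppa3* among the 4 genes was changed over 2-fold.

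*Dppa3* (NM_139218, also called *Stella* or *PGC7*), whose product shields DNA from demethylation in the zygote and marks specified PGCs as well as some ESCs in a culture, was at -3.76, -2.23, -3.30 and -3.81 in control ESCs. In *L3mbtl2*-KD ESCs it was at -1.19, -0.35, -0.77 and -1.02. The groups were far apart, and replicate 2 was the highest sample of each. The log2 fold change was 2.44 (standard error 0.35, 95% interval 1.64 to 3.24), a 5.43-fold rise, with an adjusted p of 0.00302 from limma and an exact permutation p of 0.0286, again the smallest possible. The rise was seen in all 4 pairs, between 1.88 and 2.79. It was 2.22 within slide 1, where the adjusted p was 0.244 with 2 samples a group, and 2.66 within slide 2, and leaving out 1 sample gave 2.26 to 2.79. With normexp background correction it was 1.85, the lowest of its alternatives. The adjusted p was between 0.000828 and 0.244 over its alternatives. Over one probe per gene, 54 of 13652 genes had a larger rise.

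*Dppa3* shares its name prefix with other genes found as pluripotency-associated, and of 4 DPPA genes, *Dppa3* included, all were tested, 1 was called higher and none lower, with a median of 0.56. *Dppa2* (0.81, adjusted p = 0.0416) and *Dppa4* (0.31, adjusted p = 0.0295), named after their values were seen, passed the adjusted p and not the fold threshold. For these brightest probes the 8 samples did not overlap between groups. The dimmest probe of *Dppa4* was at 0.08 (adjusted p = 0.511 from limma), and its groups overlapped. *Dppa2* was at 2.92, 2.48, 2.14 and 1.87 in control ESCs and at 3.48, 3.29, 2.94 and 2.95 in *L3mbtl2*-KD ESCs.

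*Dppa3* is among the transcripts that vary from cell to cell in serum-grown ESCs, and markers of the 2-cell-like state, another such variable state, were read beside it. Of 9 markers, 8 were tested, 7 were called higher and none lower, and the median was 1.94. The largest changes were those of *Usp17la* (2.53, adjusted p = 0.00209), a second probe of *Sp110* (2.42, adjusted p = 0.00126), *Zscan4c* (2.18, adjusted p = 0.00545), *Tcstv1* (2.12, adjusted p = 0.00907), *Zscan4f* (2.05, adjusted p = 0.00423) and *Tcstv3* (1.82, adjusted p = 0.0184). The summed level of the 8 genes was 124.0, 136, 88.1 and 90.9 in control replicates 1 to 4. In *L3mbtl2*-KD replicates 1 to 4 it was 191, 185, 122 and 129. The brightest probe, that of *Sp110*, was at -0.02 (adjusted p = 0.942). *Zscan4f* was at 3.54, 3.91, 2.68 and 2.92 in control ESCs and at 5.72, 5.75, 4.86 and 4.91 in *L3mbtl2*-KD ESCs, so that replicate 2 was the highest of each group, as for *Dppa3*, while replicate 1 was second for *Zscan4f* and not for *Dppa3*. The part of such cells in the rise of *Dppa3* was not tested.

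The late PGC markers were read beside the early genes. Of *Ddx4*, *Dazl*, *Stra8* and *Sycp3*, 3 were called higher and none lower, with a median of 1.47. *Ddx4* was at 0.86, 0.99, 0.99 and 0.85 in control ESCs and at 3.87, 3.62, 3.70 and 3.82 in *L3mbtl2*-KD ESCs (log2 fold change 2.83, adjusted p = 4.87e-06). The FACS gate was the reporter of this gene, so for *Ddx4* the sort and the siRNA cannot be told apart. *Dazl* was at 1.60 (adjusted p = 0.00394), *Stra8* at 1.34 (adjusted p = 0.00315) and *Sycp3* at -0.11 (adjusted p = 0.629). The difference between the early and the late genes was not tested. Trophectoderm markers, a further cell type that ESC cultures could hold, gave 8 tested genes of 9 and no call by limma, also over 2-fold at an unadjusted p, with a median of -0.36, and *Ascl2* had the brightest probe (-0.09, adjusted p = 0.762).

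**Figure D4:**
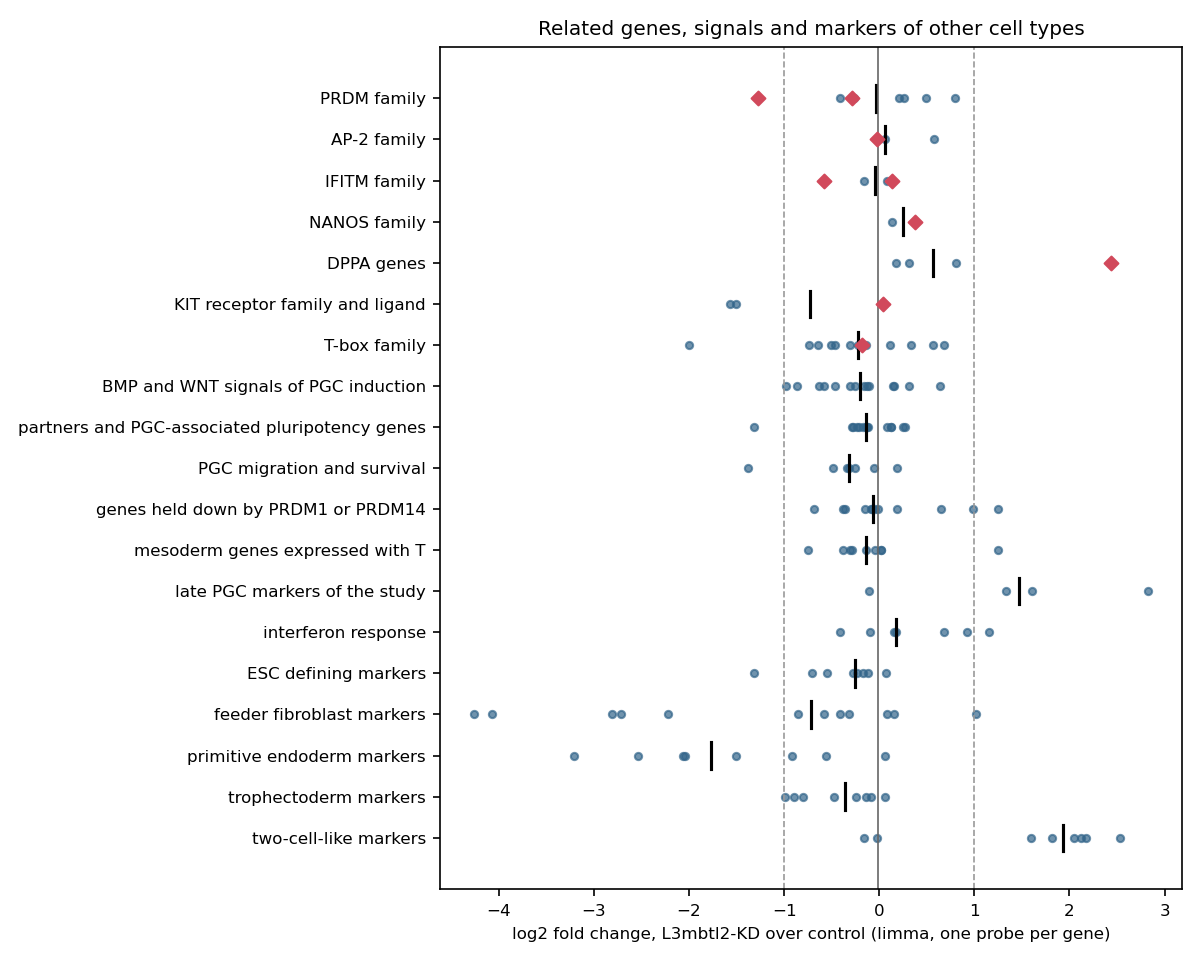
Log2 fold change, *L3mbtl2*-KD over control, of every tested gene of each list, with one probe per gene. Red diamonds are the early PGC genes, blue points other genes, black ticks the list medians, the grey line the median of all genes tested (-0.01), and dashed lines 2-fold.

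The genes next to each locus were read to see whether a change extended beyond it. Of 38 annotated genes within the 2 nearest on each side, 14 had a probe, and none of the 13 tested was called by limma, also over 2-fold at an unadjusted p, with a median of 0.07. *Ik*, beside *Dnd1* and with the brightest probe, was at 0.08 (adjusted p = 0.483). Beside *Dppa3*, *Gdf3*, a TGF-beta ligand, was at 0.15 (adjusted p = 0.468), and *Apobec1*, an RNA-editing enzyme, was at -0.81 (adjusted p = 0.0254), the only neighbour that passed the adjusted p. Both were named after their values were seen.

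The profiles of the 8 arrays, taken as values minus the gene's own mean, were compared by Euclidean distance with those of 13608 genes. Nearest to *Dppa3* were *Pramel14* (distance 0.83), *Chit1* (0.92) and *3830403N18Rik* (0.999). For *Prdm1* the nearest were *Pak3* (0.57), *Gnb5* (0.97) and *Vmn2r16* (1.096). *Prdm14* was closest to *Col9a2*, *Dennd2c* and *Bcl2l14* (0.31 to 0.38), and *Tfap2c* to *Cux2*, *Brwd1* and *Ldhb* (0.30 to 0.33). *Ifitm1* lay nearest to *Tjp3*, *Ccna1* and *Cldn7* (0.26 to 0.36), and *Ifitm3* to *Heatr5b*, *Ap2a2* and *Crk* (0.40 to 0.42). For *Kit* these genes were *Smim14*, *Pcca* and *Pter* (0.16 to 0.19), for *Nanos3* they were *Bloc1s1*, *Poldip2* and *Rnf41* (0.11 to 0.13), for *Dnd1* they were *Aph1a*, *Mast2* and *Drap1* (0.10 to 0.17), and for *T* they were *C1qb*, *Cacnb3* and *Yju2* (0.42 to 0.45). Distances were not scaled to how much each gene varied between samples, so they set no order between the 10 genes.

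The complex that holds L3MBTL2 also holds MAX and MGA, which bind the E-box and the T-box, and E2F6, so the sequence before the start of each gene was searched for these letters on both strands. RefSeq promoters (GRCm38.p6) were found for *Prdm1*, *T*, *Ifitm1*, *Ifitm3*, *Kit* and *Nanos3*, 7 windows of 250 bases upstream of the start, and not for *Prdm14*, *Tfap2c*, *Dppa3* and *Dnd1*. The E-box CACGTG was in none of the 7 windows and in 6.02% of 32851 windows of all genes, the E2F letters GCGGGAA in none and in 3.82%, and the T-box letters AGGTGTGA in none and in 1.12%. For contrast, the window of *Ddx4* held the E-box, 29 bases before the start, and the E2F letters, 136 bases before it. That of *Sycp3* held all 3 motifs, and those of *Dazl* and *Stra8* held none. A match is a description of these letters only, and so is its absence.

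The windows of *Prdm1*, *Nanos3* and *Ddx4* are shown because the first 2 genes had the estimates furthest from 0, lower and higher, among those of the 10 genes that have a sequence, with *Ddx4* as a late gene beside them. The *Prdm1* window (chr10:44458749-44458998, minus strand) held 15 CpG dinucleotides, as many as or more than which were found in 27.3% of all windows. For *Nanos3* (chr8:84176553-84176802, minus strand) the number was 3 (71.0% of windows), and for *Ddx4* (chr13:112652311-112652560, minus strand) it was 31 (5.19%), where the median of all windows was 6. Each sequence runs 5′ to 3′ up to the base before the start, with CpG dinucleotides in capitals.
*Prdm1*: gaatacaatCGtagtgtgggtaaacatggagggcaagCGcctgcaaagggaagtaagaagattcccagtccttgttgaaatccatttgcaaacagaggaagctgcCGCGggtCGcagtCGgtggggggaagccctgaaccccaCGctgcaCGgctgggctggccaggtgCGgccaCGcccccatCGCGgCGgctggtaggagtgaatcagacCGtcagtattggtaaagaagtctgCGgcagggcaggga
*Nanos3*: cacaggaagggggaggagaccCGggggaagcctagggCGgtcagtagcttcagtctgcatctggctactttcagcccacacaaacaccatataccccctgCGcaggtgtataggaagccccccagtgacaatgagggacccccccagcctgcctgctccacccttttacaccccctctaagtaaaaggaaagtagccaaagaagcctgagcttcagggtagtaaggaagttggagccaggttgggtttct
*Ddx4*: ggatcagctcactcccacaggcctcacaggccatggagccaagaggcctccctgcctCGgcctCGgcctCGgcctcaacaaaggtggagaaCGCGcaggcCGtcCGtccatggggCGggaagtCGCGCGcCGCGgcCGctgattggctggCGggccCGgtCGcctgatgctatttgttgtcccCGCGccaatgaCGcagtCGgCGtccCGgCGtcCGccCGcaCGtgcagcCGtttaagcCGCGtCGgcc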

How the data were processed

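RNA from 4 *L3mbtl2*-KD and 4 control ESC samples, labelled as biological replicates, was hybridised to one-colour Agilent arrays. The authors deposited spot intensity files from Feature Extraction, with the background subtracted, and log2 values that their methods ascribe to a 75 percentile shift. Median-centred values computed here matched the latter (lowest correlation of an array 0.99946 over 39429 probes, column medians -0.0589 to 0.0794).

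Control spots and outlier spots were dropped, spots of a probe were averaged, and the array's 75th percentile was subtracted on the log2 scale. Of 39429 probes, 26055 were named through RefSeq accessions (assembly GRCm38.p6, used for names, neighbours and promoters). A probe entered the test if all arrays of a group had it well above background (23518 probes, 78 lacking a value on some array). limma 3.58.1 in R 4.3.3 was run with Benjamini-Hochberg adjustment over all of them. Calls need one probe changed over 2-fold with an adjusted p below 0.05, and the brightest probe otherwise stands for a gene. For single genes, a two-sided exact permutation test over 70 splits was added (scipy 1.17.1). The procedure was tested on simulated data with 200 probes raised 3-fold and 200 raised 1.5-fold. At an adjusted p under 0.05, limma recovered 91.5% of the 3-fold and 47.5% of the 1.5-fold changes. Among unchanged probes 12 passed. Small changes can thus go uncalled.

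Same-numbered samples deviated together from their group means (correlations 0.377 to 0.582, against -0.437 to 0.247 for other pairs), so the numbers were taken to pair the samples. This pairing comes from the values. Each slide held 2 samples of each group.

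The 10 genes and the lists were chosen with earlier results of these data known. The text names the 10 genes, *L3mbtl2*, the 4 late markers, the genes called in each list and among neighbours (at most 6), otherwise the one with the brightest probe, and the 3 genes of nearest profile. Alternatives were normexp (offset 50, on median spot intensities, as the files hold no mean), quantile normalization, the authors' table, other filters, thresholds and tests, blocks, one probe per gene, within-slide fits and leaving out each sample.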

Additional observations from a re-analysis of the deposited data

How the results depend on the processing

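*Dppa3* was called higher with every setting run except within slide 1, and no other early PGC gene was called over a fold threshold except at an unadjusted p, where limma and the one-way test that figure legends name each called 1 lower (*Prdm1*). Within slide 1, with 2 samples a group, limma called 0 genes higher, 0 genes lower and 0 early PGC genes, whereas at an unadjusted p it gave 319 genes higher, 373 lower and 1 early PGC gene. Over all genes, 340 were called higher and 438 lower. These counts were 700 and 1014 at 1.5-fold, 1406 and 1603 with the adjusted p alone, and 194 and 159 with normexp, of which 193 and 155 were shared with the main setting. With probes above background on all arrays, where fewer probes were tested, 290 genes were lower. Leaving out 1 sample gave 298 to 371 genes higher and 357 to 500 lower, with 1 early PGC gene higher and 0 lower each time.

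The replicate block called 358 genes higher and 469 lower over 2-fold. With the block and the adjusted p alone, a setting added after the data had been seen, 3261 genes were higher and 3547 lower, with 2 early PGC genes in each direction. The block moved *Prdm14*, *Ifitm1* and *Nanos3* past an adjusted p of 0.05 and changed the side of no other early PGC gene.

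The sign turned for genes whose estimates were near 0, and the cause was not tested. It turned within slide 2 for *Tfap2c* (0.093) and *T* (0.17), and within slide 1 for *Ifitm3* (-0.048) and *Kit* (-0.13). Leaving out 1 sample gave -0.16 to 0.16 for *Tfap2c*, -0.073 to 0.29 for *Ifitm3* and -0.34 to 0.0042 for *T*. *Prdm1* was at -0.83 with normexp. *T* lay near the lower end of the measured range, which limits what its values can show.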
